A study of Gossypium hirsutum with 6 samples.

Results

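Cotton fiber is a single cell that grows from the seed coat, first elongating within a thin primary cell wall (PCW) and then laying down a thick secondary cell wall (SCW) of nearly pure cellulose. The interval from 14 to 17 days post anthesis (dpa) spans the passage from the one phase to the other in *Gossypium hirsutum* cv. TM1, an Upland cotton line. It was described here by subtracting, for every array entry of a fiber EST with values at all 6 stages, the deposited 14 dpa value from the 17 dpa value. Of 12262 named entries in the table, 11858 met this rule, and they stand for 11841 distinct probe numbers because 17 numbers are listed both with and without a contig or EST name.

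Plants were grown in a greenhouse, and fiber RNA of the 8, 10, 14, 17, 21 and 24 dpa stages was compared on 2-colour oligonucleotide arrays against the other stages, with 5 dpa as the reference of the deposited values. All stages are of the same genotype and no treatment is given in the labels. Age cannot be told apart from any difference in harvest, extraction or hybridization between the stages. The table holds 1 column of log2 ratios to 5 dpa per stage, in which the hybridizations had already been combined. The labels do not say how many plants or RNA extracts stand behind a profile. A difference of 1 on this scale is a 2-fold higher transcript level at 17 than at 14 dpa, and the 5 dpa reference cancels in it. With 1 profile per stage there was no spread between replicates and no p-value was computed. Probes were called by a 2-fold difference, and "rose" and "fell" are used only of such calls. In RNA of whole fiber samples, a change in the share of a kind of cell cannot be told apart from a change in RNA per cell.

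In growing fiber, expansins and xyloglucan-modifying enzymes loosen the primary wall while turgor drives elongation, and microtubules guide the cellulose microfibrils. At the transition, cellulose synthase complexes of the secondary wall replace those of the primary wall. Sucrose synthase feeds them by splitting sucrose into fructose and UDP-glucose, the substrate of cellulose synthesis.

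The change over these 3 days was small for most transcripts. The median difference was -0.01 with an SD of 0.51 over entries, 10534 entries (88.8%) were within 1.5-fold, and the 14 and 17 dpa profiles correlated with r = 0.75 across entries, which are not independent replicates. At 2-fold, 286 entries rose (2.41% of 11858) and 256 fell (2.16%), together 542 (4.57%). At the threshold for higher values the closest entries inside were at 1.01 and 1.02 and the closest outside at 0.995 and 0.997. For lower values they were at -1.002 and -1.007 inside and at -0.999 and -0.998 outside. Whether these calls came with a measurable signal differed sharply between the directions, as the scanner files showed.

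One array had its Cy3 image filed under 14 dpa and its Cy5 image under 17 dpa, so that it likely compared both stages directly. The labels list both dyes for every sample and do not settle the stage of each dye. The direction rests on the filing and on the deposited differences, with which the Cy5 over Cy3 ratio correlated at r = 0.54 over 10887 entries (Spearman's rho 0.49). For the 15 pairs of stages, this was the highest value, and the next was 0.38 for 10 to 17 dpa. Turning the dyes would turn the sign of every such r. The array also entered the deposited profiles, so it is a check of signal and not an independent replicate. Since its direction was read in part from those profiles, it is no separate check of direction. An entry was called bright here when its spots exceeded the array's empty buffer spots (their median plus 3 scaled median absolute deviations) in both dyes. Duplicate spots of a bright entry on this array differed by a median of 0.08 (log2 ratio, 7875 pairs). Where 1 probe number had a pair of deposited entries, their 17 to 14 dpa differences lay a median of 0.16 apart over 17 pairs. The SD of a difference from these pairs was 0.43, or 0.13 over the 16 pairs without the most divergent one. In that pair one entry was at 2.95 and the other at 0.52.

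Markers of fiber cells were bright on the array of both stages. Scanner levels, given as log2 over the median of the file in the 2 files of each stage, were 2.51 and 2.90 at 14 dpa and 2.54 and 2.70 at 17 dpa for expansin 1 (GA_10dpa_fiberEST_00974). They were 3.74 and 2.13, then 3.40 and 3.38, for xyloglucan endotransglycosylase (GA_10dpa_fiberEST_12158), which cuts and rejoins xyloglucan. A lipid transfer protein (GA_10dpa_fiberEST_12134) had levels of 3.49 and 2.79, then 3.71 and 3.14. For sucrose synthase, GA_10dpa_fiberEST_10590 had 2.28 and 1.86, then 1.98 and 1.92. GA_10dpa_fiberEST_00620 lay nearer the file median, at 0.72 and -0.09, then 0.63 and 1.07. Levels of beta-tubulin are given below. The 4 features for leaf chlorophyll a/b binding proteins together held between 0.00743% and 0.00942% of the signal in these 4 files, with deposited differences of -0.17 to 0.09. Between 2 and 4 of them were above the buffer spots, depending on the file. Their part in the results was not tested. No seed storage or embryo gene was named among the probes used here. Probes for foreign genes, which plant RNA should not bind, differed by 0.86 for aaacC1, -0.89 for hph, -0.46 for npt-II, -0.21 for GUS and -0.00 for GFP. Differences up to 0.89 in size thus occurred at probes for genes that cotton is not expected to carry. Of these probes, aaacC1 and GFP were above the buffer spots in both dyes, so being bright does not exclude unspecific signal.

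Genes of cellulose synthesis stood at nearly the same level at 14 and 17 dpa. The cellulose synthase catalytic subunit (GA_10dpa_fiberEST_02992), which polymerizes glucose into cellulose, was at 0.31 at 14 dpa and 0.11 at 17 dpa in one deposited entry and at 0.34 and 0.30 in the other. A membrane-anchored endo-1,4-beta-glucanase (GA_10dpa_fiberEST_10639), a kind of enzyme that cellulose synthesis requires in Arabidopsis, was at 0.11 and then 0.12. Of both listed members, 0 passed 2-fold either way, with a median difference of -0.09 against -0.01 over all entries.

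Array features for known fiber cellulose synthases were measured as controls. GhCesA-1, cloned from cotton fiber as a cellulose synthase of secondary wall formation, had ratios of 2.98 and -2.14 at 8 and 10 dpa, of -1.70 and -1.93 at 14 and 17 dpa, and of 3.81 and 7.30 at 21 and 24 dpa. Its spots on the array of both stages were weak, so the 14 and 17 dpa values come from signals near the buffer. FbL2A, a gene known from late fiber, had values of 1.42, 1.19, 4.88 and 7.83 from 14 to 24 dpa and was also weak at 14 and 17 dpa. GhCesA-2 was bright and stood at 0.35 and 0.54 at 14 and 17 dpa. For GhCesA-1, FbL2A and GhCesA-2 the differences from 14 to 17 dpa were -0.23, -0.23 and 0.18. GhCesA-1 and FbL2A rose by over 2-fold from 17 to 21 dpa in these profiles, not from 14 to 17 dpa, and GhCesA-1 also fell by over 2-fold from 8 to 10 dpa.

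Sucrose synthase was already below its 5 dpa level at 14 dpa and stayed there. Probe GA_10dpa_fiberEST_10590 was at -1.58 at 14 dpa and -1.97 at 17 dpa, and its other entry at -1.41 and -1.62. GA_10dpa_fiberEST_00620 was at -1.43 and -1.48, and its other entry at -1.13 and -0.99. None of the 4 entries passed 2-fold between the stages, and the differences lay between -0.38 and 0.15.

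Wall loosening genes were within 1.5-fold between both stages. Expansin 1 was at 1.26 at 14 dpa and 1.32 at 17 dpa, and xyloglucan endotransglycosylase at 1.78 and 1.62. A putative beta-galactosidase precursor (GA_10dpa_fiberEST_03757), which acts on wall polysaccharides, was at 1.16 and 0.80 and reached -0.12 at 21 dpa. The other beta-galactosidase (GA_10dpa_fiberEST_04269), with weak spots, was at -1.44 and -1.49. A putative monocopper oxidase precursor (GA_10dpa_fiberEST_12232) was at 0.04 and 0.01. Of 5 members, 0 rose and 0 fell, with a median difference of -0.05.

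None of the cytoskeleton genes passed 2-fold. Beta-tubulin (GA_10dpa_fiberEST_07246), a building block of microtubules, was at 1.30 at 14 dpa and 1.13 at 17 dpa. Tubulin beta-1 (GA_10dpa_fiberEST_11289) was at 0.84 and 0.93, and actin (GA_10dpa_fiberEST_04501) at 0.00 and -0.18. The 3 differences ran from -0.17 to 0.09. For beta-tubulin and actin the sign differed between the deposited values and the scanner files. Scanner levels of beta-tubulin were 4.01 and 2.59 at 14 dpa and 4.19 and 4.72 at 17 dpa, with an array ratio of 0.12. Those of actin were 3.99 and 2.49, then 4.31 and 4.44, with an array ratio of 0.24, so for both genes the 17 dpa files lay above the 14 dpa files.

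The phenolic and flavonoid enzymes differed from each other in sign. Flavanone 3-hydroxylase (GA_10dpa_fiberEST_10602), which acts in the flavonoid pathway, was at -1.31 at 14 dpa and -1.92 at 17 dpa, a difference of -0.62 that did not pass 2-fold. Its scanner levels were 1.07 and 0.59 at 14 dpa and 0.17 and 0.04 at 17 dpa, so both 17 dpa files lay below both 14 dpa files, as for 12.9% of the 7827 bright entries measured in all 4 files. A putative anthranilate N-hydroxycinnamoyl/benzoyltransferase (GA_10dpa_fiberEST_10567), of an acyltransferase family that makes phenolic amides, rose from -0.78 to 0.69, a 2.79-fold increase. On the array of both stages it had 1 weak spot, with corrected signals of 8.79 at 14 dpa and 17.5 at 17 dpa and an array ratio of -0.01.

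Among 59 described probes in 14 groups by function, 5 rose and 0 fell, that is 5 of 59 beside 2.41% of all entries, and the median difference was -0.03. The descriptions, matches to genes of other species, come from a published list that was drawn in part on 17 dpa values of these samples. That list also kept only genes that the authors had found to be regulated during fiber development. Its counts are thus not independent evidence of a direction or of a higher rate of calls. Of 125 probes in that list 124 have values, of which 12 rose and 1 fell. Of the 93 bright ones, 5 rose and 0 fell, beside 0.905% and 0.0992% of all bright entries.

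**Figure D1:**
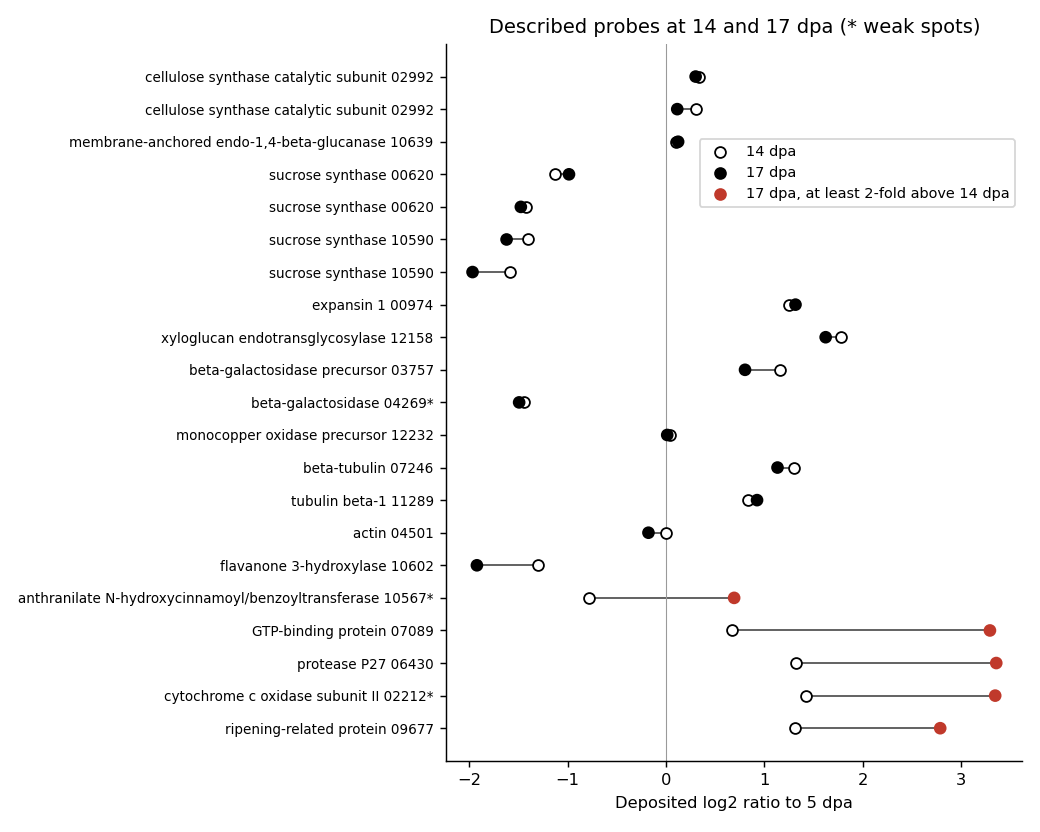
Deposited log2 ratio to 5 dpa (x axis) at 14 dpa (open circles) and 17 dpa (filled circles) for the described probes named by rule, 1 line per entry with the last digits of its probe number, asterisks marking weak spots. Sucrose synthase, cellulose synthase, wall loosening and cytoskeleton probes moved by less than 2-fold, while the 5 probes with red circles rose, among them the GTP-binding protein from 0.67 to 3.29.

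A GTP-binding protein (GA_10dpa_fiberEST_07089), of a class of proteins that act as molecular switches in signalling and vesicle traffic, rose the most among the described bright probes. The deposited ratios were -0.02, 0.28 and 0.67 up to 14 dpa, in stage order, and 3.29, 3.12 and 4.27 from 17 dpa on, a 6.17-fold difference from 14 to 17 dpa. On the array of both stages, the background-corrected signals of its pair of spots were 389 and 344 in the 14 dpa dye. In the 17 dpa dye they were 12825 and 12437. These signals are not normalized, and the median of the file was 294 for the 14 dpa dye and 589 for the 17 dpa dye. Its array ratio after normalization was 3.89, that is 14.8-fold. Across the 4 files, its scanner levels were 0.32 and 1.52 at 14 dpa and 4.42 and 3.45 at 17 dpa, without overlap. Both 17 dpa files lay above both 14 dpa files in 10.4% of the 7827 bright entries measured in all 4. Another probe described as a GTP-binding protein (GA_10dpa_fiberEST_11797) was at -0.29 and -0.56. The small GTPase and calcium signalling group held 8 probes, of which 1 rose and 0 fell, beside 2.41% and 2.16% of all entries. The median difference of the group was 0.04. Rab11C, a small GTPase of vesicle traffic, was at 1.62 and 1.76 (GA_10dpa_fiberEST_11669) and at 1.15 and 1.19 (GA_10dpa_fiberEST_03038), and calmodulin NtCaM10 (GA_10dpa_fiberEST_12408), a calcium sensor, at 0.47 and 0.56.

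Protease P27 (GA_10dpa_fiberEST_06430) rose 4.09-fold. It was at -0.08 at 8 dpa, 1.22 at 10 dpa and 1.33 at 14 dpa, and then at 3.36, 3.60 and 4.96 at 17, 21 and 24 dpa. In the scanner files its levels were 0.68 and 0.36 at 14 dpa and 4.00 and 3.07 at 17 dpa. A second probe described as protease P27 (GA_10dpa_fiberEST_06424), brighter at 14 dpa with levels of 3.72 and 3.58, was at 2.06 and 2.65 and did not pass 2-fold. GA_10dpa_fiberEST_06002, of unknown function, is listed under the same assembled sequence as the first protease P27 probe and was looked up for that reason after the data were seen. It rose from 1.06 to 2.62, with levels of -0.64 and -0.96 at 14 dpa and 1.70 and 2.84 at 17 dpa, so both probes of that sequence moved the same way. The other proteolysis probes were a putative serine carboxypeptidase II (GA_10dpa_fiberEST_12737), with a difference of 0.78 and no usable spot on the array of both stages, and the subtilase SBT2 (GA_10dpa_fiberEST_10417) with 0.28. In all, 1 of 4 proteolysis probes rose, beside 2.41% of all entries. Their median of 0.69 was the highest of the 14 groups. It is the midpoint of the second protease P27 probe (0.59) and the carboxypeptidase without a usable spot (0.78).

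A putative ripening-related protein (GA_10dpa_fiberEST_09677) rose 2.79-fold. Its ratio of 0.54 at both 8 and 10 dpa became 1.31 at 14 dpa, then 2.79, 3.27 and 3.71 over the later stages. Scanner levels of 0.75 and 0.81 at 14 dpa and 3.33 and 3.95 at 17 dpa did not overlap. Cytochrome c oxidase subunit II (GA_10dpa_fiberEST_02212), a core subunit of the last complex of the respiratory chain, rose from 1.42 to 3.35, that is 3.80-fold, and reached 4.23 at 24 dpa. On the array of both stages it was above the buffer spots at 17 dpa but not at 14 dpa, where 1 of its pair of spots had no signal above its local background. Its array ratio there was 1.77.

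Lipid, water channel, redox, transcription and translation groups held no call. Median differences were -0.01 for 5 probes of lipids and lipid transfer, -0.12 for 3 water channels and -0.45 for 3 of redox and iron. They were -0.11 for 5 of transcription and chromatin and -0.03 for 4 of translation. The redox and iron median is the value of a probable glutathione peroxidase (GA_10dpa_fiberEST_05938), which had weak spots and an array ratio of 0.02. Transport and energy metabolism had a median of -0.03 over 5 probes, with cytochrome c oxidase subunit II as the only call, and the 8 other described probes had 0.23, with the ripening-related protein as the only call. The largest negative difference among the 59 was that of a glutathione S-transferase (GA_10dpa_fiberEST_11644), a detoxification enzyme, which was at -2.42 and -3.11. A Yippee-like protein (GA_10dpa_fiberEST_00794) was at 2.82 at 14 dpa and 3.63 at 17 dpa and showed one of the larger differences that stayed under 2-fold, 0.81.

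Probes described by an Arabidopsis match alone were grouped after the data were seen, and 2 of 16 rose, beside 2.41% of all entries. Neither of the 2 was bright. An inositol 1,3,4-trisphosphate 5/6-kinase family protein (GA_10dpa_fiberEST_05939), of enzymes that phosphorylate inositol phosphates, went from 1.61 to 6.43. Its corrected signals on the array of both stages were -3.05 at 14 dpa and 14.7 at 17 dpa, that is at the local background. RXW8 (GA_10dpa_fiberEST_06888) went from -2.45 to 0.71 and had no usable spot on that array. GASA4 (GA_10dpa_fiberEST_10842), of a family of gibberellin-regulated peptides, was bright at both stages and stood at -0.34 and -0.79. The only probe of the 125 that fell, GA_10dpa_fiberEST_02576, was at 0.09 and -2.38 and had no usable spot there either.

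The balance of directions over the whole profile differed with the signal. Among the 8064 bright entries, 73 rose (0.905%) and 8 fell (0.0992%). Another 971 entries had no usable spot on the array of both stages, and in them 93 rose and 114 fell. The remaining 2823 entries were weak in at least one dye, with 120 that rose and 134 that fell. The bright class thus held 25.5% of the calls that rose and 3.13% of the calls that fell. The SD of the difference was 0.28 in bright entries, 0.64 in weak ones and 1.16 in those without a usable spot. The highest and lowest differences of all, 8.19 and -9.83, belong to entries outside the bright class.

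**Figure D2:**
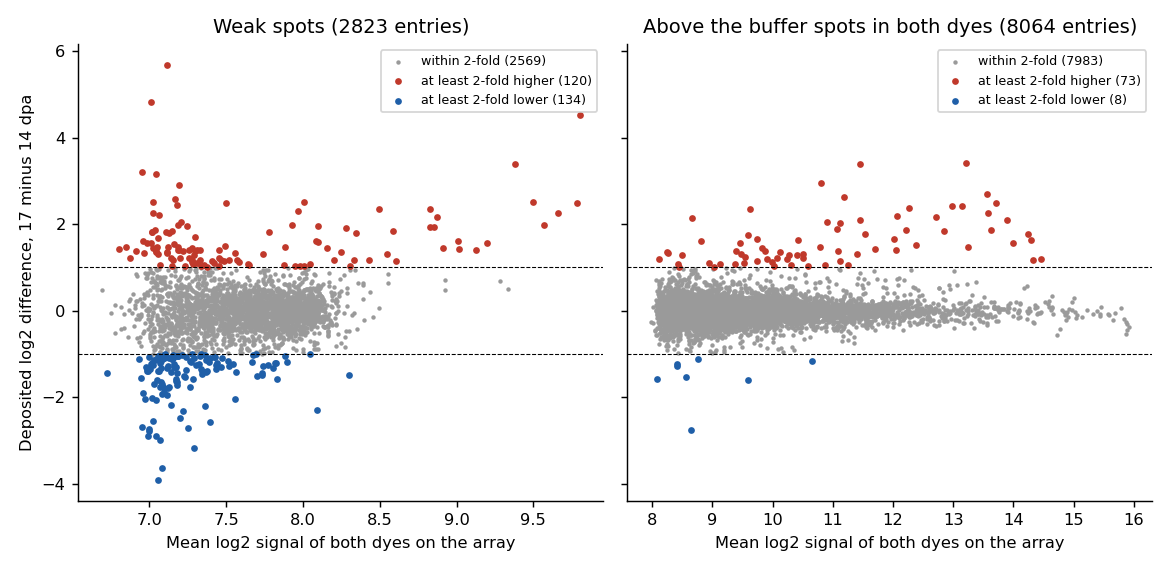
Deposited log2 difference between 17 and 14 dpa (y axis) against the mean log2 signal of both dyes on the array of both stages (x axis), 1 point per entry, for weak entries (left) and bright entries (right), with dashed lines at 2-fold. Calls in the weak class lie on both sides (120 higher, 134 lower), while in the bright class 73 lie above and 8 below.

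Among the bright entries, the calls that rose lay mostly with the strongest signals. In 5 equal classes of the mean signal, from the dimmest to the brightest, 6, 4, 8, 13 and 42 entries rose and 4, 2, 1, 0 and 1 fell. Agreement between the array ratio and the deposited difference grew along the same order, with r = 0.40, 0.52, 0.61, 0.69 and 0.89. A high signal at 17 dpa is itself part of the mean signal, so the first of these orders is a description of where the calls lie. The SD of the difference was 0.28, 0.26, 0.23, 0.23 and 0.37 in the same order, and a wider spread raises r. The array also entered the deposited profiles, so the second order is a description too. The 73 entries were spread over 31 of the 48 printing blocks of the array, with at most 6 in a block.

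For the 73 bright entries that rose, the array ratio had a median of 2.21 where the deposited difference had 1.43. It was at least 2-fold in the same direction in 57 of them (beside 1.48% of the bright entries) and within 1.5-fold in 13. In the 8 bright entries that fell, its median was -0.21, with 2 at least 2-fold lower (beside 0.0868%) and 6 within 1.5-fold. Over all 10887 measured entries the array ratio itself gave 172 entries at least 2-fold higher (1.58%) and 15 lower (0.138%). With the dyes taken as filed, more entries were thus higher than lower at 17 dpa by this ratio. A spot in the 17 dpa dye was near the scanner ceiling (over 60000) in 10 of the 73, so that their array ratios are lower bounds.

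**Figure D3:**
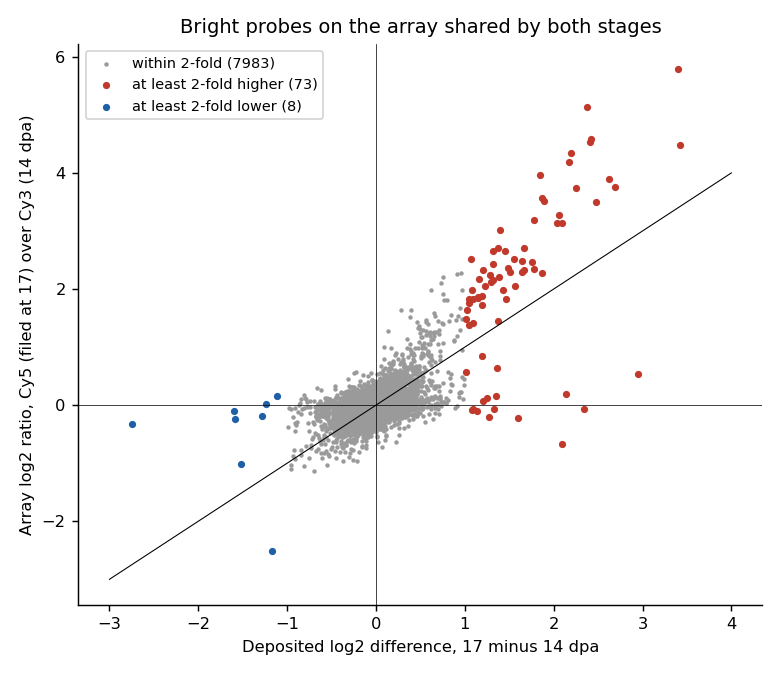
Array log2 ratio of the Cy5 image (filed under 17 dpa) over the Cy3 image (filed under 14 dpa) on the y axis against the deposited log2 difference on the x axis for the 8064 bright entries, with the line of equality. Of the 73 entries in red most lie above the line, with a band of 13 within 1.5-fold on the array, and 6 of the 8 entries in blue lie near an array ratio of 0.

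Each stage also had a file of another array, in the other dye. Hybridizations of these stages were combined in the deposited profiles, so these files may also have had a part in choosing the 73 entries and are no independent replicates. Of the 73 entries, 72 were measured in all 4 files, and both 17 dpa levels lay above both 14 dpa levels in 55 of them, beside 10.4% of all bright entries. Median levels were 0.71 and 1.07 at 14 dpa and 3.08 and 3.50 at 17 dpa. From the files of the other arrays alone, the median difference was 2.51, beside -0.18 over all bright entries. Of the 5 bright entries that fell and were measured in all 4 files, 1 had both 17 dpa levels below both 14 dpa levels, beside 12.9% of all bright entries. On the other arrays these 5 entries that fell had a median difference of 0.24, beside the same -0.18.

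**Figure D4:**
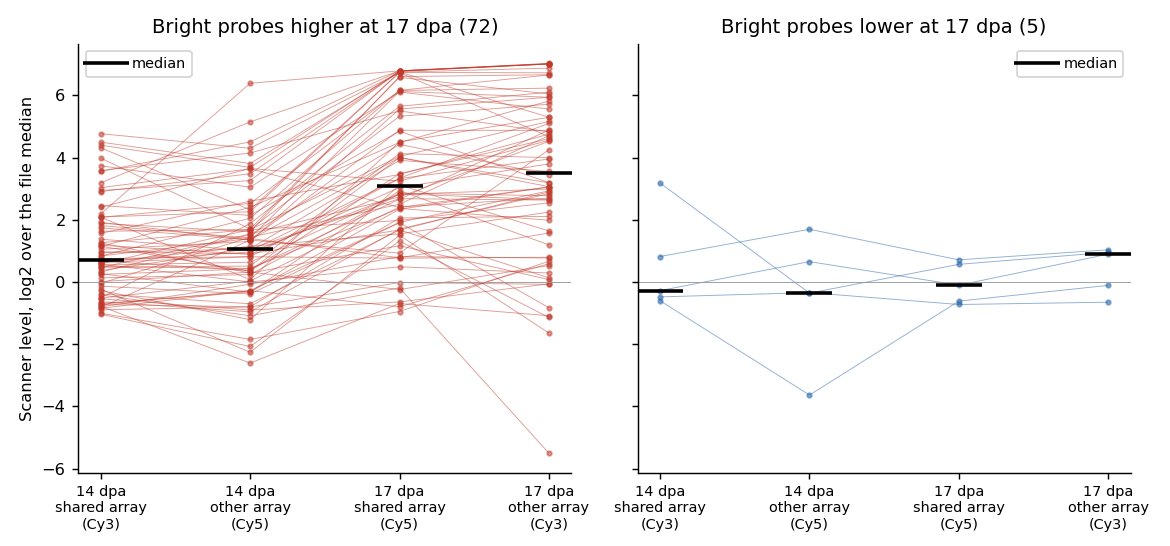
Scanner level, as log2 over the file median (y axis), in the 4 files of 14 and 17 dpa for bright entries called higher (left, 72 entries) or lower (right, 5 entries) at 17 dpa, 1 line per entry with black bars at the medians. On the left both medians rise from about 1 or less (0.71 and 1.07) to above 3 (3.08 and 3.50), and on the right the levels of both stages overlap.

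By the rule for unnamed probes, the bright entries with the highest and lowest differences were GA_10dpa_fiberEST_12339 and GA_10dpa_fiberEST_03317, which rose, and GA_10dpa_fiberEST_00547 and GA_10dpa_fiberEST_11035, which fell. GA_10dpa_fiberEST_03317 went from -0.51 to 2.89 and held 4.16 at 24 dpa. Its pair of spots had signals of 214 and 199 in the 14 dpa dye and 30109 and 29009 in the 17 dpa dye, before normalization. The normalized array ratio was 5.78, that is 55.0-fold, where the deposited difference was 10.5-fold. For GA_10dpa_fiberEST_12339, the deposited values were -0.97 at 14 dpa and 2.46, 3.67 and 2.63 at 17, 21 and 24 dpa. Its 17 dpa spots were near the scanner ceiling, at 65118 and 64934. Its 14 dpa levels were 2.19 on one array and 6.39 on the other, so that the arrays differed about its level at 14 dpa. The entry with the lowest difference, GA_10dpa_fiberEST_00547, went from -1.06 to -3.81 and back to -0.80 at 21 dpa, with an array ratio of -0.32. GA_10dpa_fiberEST_11035 was at -0.40 at 14 dpa, differed by -1.60 at 17 dpa and was at -0.60 at 21 dpa, with an array ratio of -0.11 and scanner levels of 0.82 and 1.69 at 14 dpa and 0.71 and 1.03 at 17 dpa, which overlapped.

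Some transcripts came above the buffer spots only at 17 dpa. Of 286 entries above them in the 17 dpa dye alone, 35 rose (12.2%) and 0 fell, beside 2.41% and 2.16% of all entries. In 33 of the 35 the array ratio was at least 2-fold higher too, beside 1.58% of measured entries. Deposited differences of the 35 had a median of 1.82. Of 219 entries above the buffer in the 14 dpa dye alone, 3 rose (1.37%) and 6 fell (2.74%). In 5 of the 6 the array ratio was at least 2-fold lower, beside 0.138% of measured entries. The 2318 entries above it in neither dye held 82 calls that rose and 128 that fell. The array ratio was 2-fold the same way in 0 of either. A fixed offset was added to the signals of both dyes before this ratio was taken. It pulls the ratio of such weak signals toward 0, so this count cannot decide whether the array showed these calls. Being above the buffer at one stage only goes with the direction of the difference and of the array ratio. These counts thus describe the classes and test nothing. Over all entries, the deposited difference and the array ratio both passed 2-fold in 90 that rose and 7 that fell.

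The 14 and 17 dpa values chose the entries called, so their courses are given as a description. The 73 bright entries that rose had medians of -0.12, 0.42 and 0.06 at 8, 10 and 14 dpa and of 1.75, 1.37 and 1.75 at 17, 21 and 24 dpa. At least 2-fold above 5 dpa were 0, 9 and 11 of them at the early stages and 59, 43 and 43 at the later ones. From 17 to 21 dpa, 60 stayed within 2-fold, 2 rose further and 11 fell back. Between 17 and 24 dpa, 47 stayed within 2-fold, 12 rose and 14 fell, and 9 of the 73 were at least 2-fold below 5 dpa at 24 dpa. The highest of the 6 stages was 17 dpa in 36 and 24 dpa in 34 of the 73. The lowest was 8 dpa in 34 and 14 dpa in 26. The 35 entries above the buffer at 17 dpa only had medians of -0.24, 1.53, 0.94 and 1.46 over the stages from 14 to 24 dpa.

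In the bright entries that fell, the low value was limited to 17 dpa in most. Their medians were 0.33, 0.08 and -0.34 at 8, 10 and 14 dpa, -1.64 at 17 dpa, and -0.65 and -0.46 at 21 and 24 dpa. For 6 of the 8, 17 dpa was the lowest of the stages, and 5 of the 8 rose by 2-fold from 17 to 21 dpa.

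**Figure D5:**
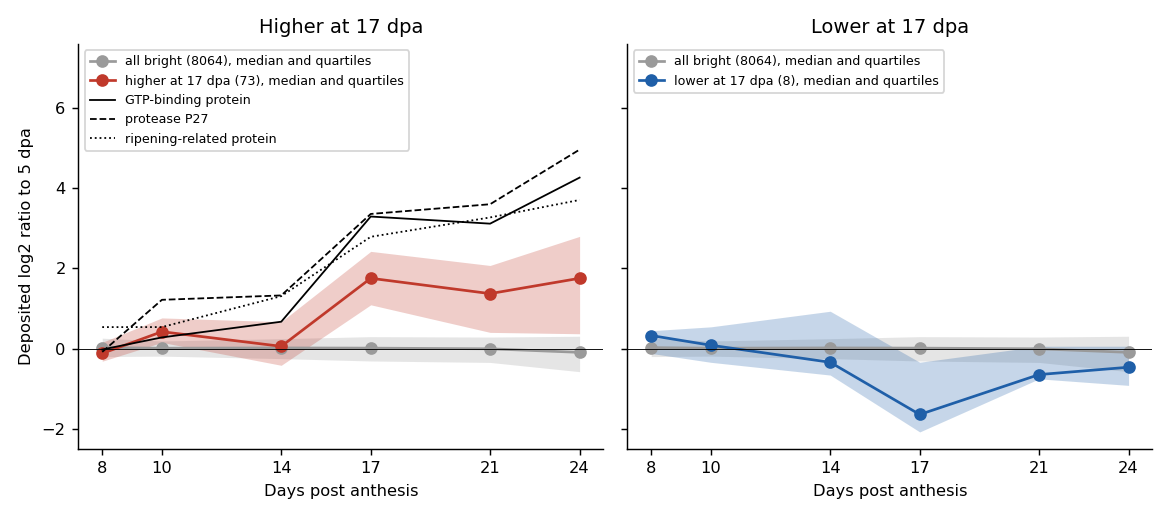
Deposited log2 ratio to 5 dpa (y axis) against days post anthesis (x axis), as the median (line) and quartiles (band) of the bright entries that rose (left, red, 73) or fell (right, blue, 8) from 14 to 17 dpa, beside all 8064 bright entries (gray), with 3 described probes in black. The red median goes from 0.06 at 14 dpa to 1.75 at 17 dpa and is 1.75 at 24 dpa, while the blue median is lowest at 17 dpa (-1.64).

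Set beside the neighboring intervals, which share a profile with this one, the bright entries split differently by direction. From 10 to 14 dpa, 27 of them rose and 30 fell. From 14 to 17 dpa the counts were 73 and 8, and from 17 to 21 dpa they were 53 and 138. Over all entries the corresponding counts were 150 and 185, 286 and 256, and 401 and 373. The bright class needs a signal at both 14 and 17 dpa, which bears differently on the neighboring intervals, and no test of these counts was possible with 1 profile per stage.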

How the data were processed

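Fiber RNA of 6 stages of *G. hirsutum* cv. TM1 was hybridized by the authors on 2-colour arrays, in a loop design that included swapped dyes. The deposited log2 ratios to 5 dpa are coefficients of linear models in LIMMA, fitted after the authors had flagged poor spots by hand, subtracted the background, dropped spots close to the buffer level, discarded dye swaps that disagreed and normalized by lowess. Hybridizations were combined in that fit, so each stage has 1 profile. The deposited scanner files give spot and background intensity without normalization.

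Here the 14 dpa value was subtracted from the 17 dpa value in 11858 of 12238 probe entries, and 380 without values were left out. No column of values was left unused. Calls needed a 2-fold difference. In the 12 scanner files of 7 arrays, flagged spots were dropped, background was subtracted and the spots of an entry were averaged. The files' median signal lay between 33.4 and 589, and 3433 spots were flagged on the array of both stages. The number of arrays limits the precision. Its ratio was made with limma 3.58.1 in R 4.3.3 (normexp, offset 50, loess), after a test on simulated data, and the rest with pandas 2.3.3 in Python 3.11.15.

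Named were all probes of the cellulose, sucrose, wall loosening, cytoskeleton and phenolic groups, every other grouped probe past 2-fold, and the 2 highest and 2 lowest unnamed bright probes. Others were chosen after their values were seen. The comparison, the groups and the alternatives were chosen with earlier results of these data known. The alternatives changed the fold threshold, the centring and quantiles of the profiles, the buffer limit, the entries used, and the array ratio's background correction and normalization.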

Additional observations from a re-analysis of the deposited data

Results flagged for a closer look

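Probes without a deposited profile were looked at on the array of both stages, since no comparison uses them. Of these 380, 64 had a usable spot and 2 were above the buffer spots in at least 1 dye, a signal in data outside the profiles. In those 2 the array ratio was 0.02 and 0.15, and 0 passed 2-fold. With 1 profile per stage, samples of a stage were not compared with each other.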

How the results depend on the processing

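The count of entries that rose (286) was 651 at 1.5-fold and 131 at 3-fold, and the count that fell (256) was 673 and 102. Among entries above the buffer spots' median plus 3 MAD in both dyes they were 73 and 8, and above the buffer spots' mean plus 3 SD, which 417 entries passed, 9 and 0. The array ratio gave 172 and 15. Alternatives added after the data were seen gave 111 and 14 (above the buffer in at least 1 dye), 119 and 7 (array ratio above the buffer in both dyes) and 90 and 7 (deposited difference and array ratio). The cause of these shifts was not tested, beyond the fewer entries that each filter leaves. Both counts stayed within 1.5 times under 4 alternatives, namely centring, equal quantiles, control features and leaving out bare probe numbers. The overall median and 41 of 42 group values moved by less than 0.43, the SD between paired entries. That SD was 0.13 without the most divergent pair, and it exceeds most group medians in size, so this is a weak criterion. Signs changed by the array ratio in some groups, as from -0.16 to 0.16 for cytoskeleton and from -0.09 to 0.06 for cellulose synthesis. The other described probes went from 0.23 to -0.04. The phenolic and flavonoid median, which moved by more, went from 0.43 to -0.42 with the array ratio. The acyltransferase GA_10dpa_fiberEST_10567 reversed in 2 settings, with array ratios of -0.010 by loess and -0.43 by median centring. With plain background subtraction its array ratio was 0.31, and all of these rest on 1 weak spot. Over the named probes, 75 values moved by less than 0.43 and 23 by more. Among the 23 were the array ratios of the bright probes that rose, which were larger than the deposited differences. Those of the named bright probes that fell were also among them and were smaller in size. GA_10dpa_fiberEST_00547 went from -2.75 to -0.32 and GA_10dpa_fiberEST_11035 from -1.60 to -0.11. No paired analysis was possible because each stage has 1 profile. Weak signal limits the entries that fell, of which 8 of 256 were bright.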
